A study of Mus musculus with 16 samples.

Results

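Chromatin opened or closed between freshly isolated haematopoietic stem cells (HSCs) of young mice and HSCs recovered after transplantation was compared in 8 ATAC-seq libraries, 4 from before transplantation (young pre 1 to 4) and 4 from after it (young post 1 to 4), out of 16 in the series. The members were chosen by the library labels: the young libraries of either stage, joined in pairs by number. Each young replicate pooled 3 to 4 male B6 donors aged 8 to 12 weeks. Part of the sorted HSCs (10000 cells) went straight into the pre library, and 1000 HSCs of the same pool were given to 5 lethally irradiated young BJ recipients together with 300000 helper marrow cells from BJ mice, depleted of Sca-1+ cells. After 3 months the marrow of the 5 recipients was pooled, and 10000 HSCs sorted from it made the post library. Every post library therefore shares the irradiation, the recipient strain and the helper cells, and no library of transplanted but unirradiated hosts was part of the design. The labels name no donor marker for the post sort, so donor HSCs and HSCs of the recipients or helper marrow cannot be told apart. The other 8 libraries come from 24-month-old donors, with 1 donor per replicate, and were used only where the old pairs are named.

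HSCs are rare, mostly quiescent marrow cells that give rise to all blood lineages. Transplantation into an irradiated host forces them to home to emptied niches, divide and rebuild the blood, after which part of the pool returns to quiescence. ATAC-seq uses a transposase to insert adapters into open DNA, so a peak marks a promoter, an enhancer or another stretch free of nucleosomes. Gene starts of active and poised genes give the most stable peaks, and peaks within and between genes differ more between cell states.

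The deposited value was a peak list for each library, and a region could be compared in 2 ways: by whether it was called, and by its rank within the library. Peaks that overlapped by at least 1 bp in any of the 16 libraries were merged, and 33773 regions found in at least 2 libraries were kept, 32878 of them called in a young library. The rank of a region is its percentile by peak area, the caller's summed significance over the peak, with 100 the largest area of that library. All positions are 1-based (mm10, GRCm38), and a region is named by its nearest protein-coding gene within 100 kb. In bulk cells, fewer cells with an open region and a region less open in every cell cannot be told apart.

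The start sites of 8 genes lay in regions on which the comparison turns, and their upstream sequences show what kind of promoter is involved. Each sequence is the 250 bases before a gene's start, 5′ to 3′ on the gene's strand, from the RefSeq table of GRCm38.p6. Capitals mark matches, on either strand, to any of 10 motifs. Those spelled out are CCGGAAGT for ETS factors, CCAAT for NF-Y, GGGCGG for the GC box of Sp and Klf factors, TGANTCA for AP-1, TGACGTCA for CREB at the cAMP response element (CRE), TGTGGT for RUNX, AGATAA for GATA factors and CACGTG for the E-box. The palindromic site of NRF1 and the repeat bound by interferon regulatory factors (IRF) were also searched, and overlapping matches were each counted. The first 3 belong to the regions whose rank fell after transplantation: Noxa1 on chr2:25095206-25095455 (minus strand), Ackr3 on chr1:90203730-90203979 (plus strand) and Rab39 on chr9:53706233-53706482 (minus strand).
Noxa1: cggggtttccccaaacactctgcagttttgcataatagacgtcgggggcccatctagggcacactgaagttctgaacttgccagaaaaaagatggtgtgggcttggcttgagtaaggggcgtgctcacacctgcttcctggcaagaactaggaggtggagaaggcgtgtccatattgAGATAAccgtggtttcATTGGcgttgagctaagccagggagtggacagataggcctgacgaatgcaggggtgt
Ackr3: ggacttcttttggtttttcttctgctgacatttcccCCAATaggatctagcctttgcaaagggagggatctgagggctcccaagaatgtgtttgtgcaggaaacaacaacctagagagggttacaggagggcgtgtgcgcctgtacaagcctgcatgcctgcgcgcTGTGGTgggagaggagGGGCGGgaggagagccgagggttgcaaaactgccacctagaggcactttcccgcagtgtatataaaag
Rab39: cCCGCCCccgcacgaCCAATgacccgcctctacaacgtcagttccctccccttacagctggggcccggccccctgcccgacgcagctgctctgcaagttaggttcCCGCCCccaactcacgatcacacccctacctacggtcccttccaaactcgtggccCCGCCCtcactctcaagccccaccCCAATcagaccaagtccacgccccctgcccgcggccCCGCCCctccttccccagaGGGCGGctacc
Ube4a on chr9:44965601-44965850 (minus strand) and Brwd1 on chr16:96082429-96082678 (minus strand) belong, with Noxa1 and Rab39, to regions among the strongest 9002 of every pre library and of no post library.
Ube4a: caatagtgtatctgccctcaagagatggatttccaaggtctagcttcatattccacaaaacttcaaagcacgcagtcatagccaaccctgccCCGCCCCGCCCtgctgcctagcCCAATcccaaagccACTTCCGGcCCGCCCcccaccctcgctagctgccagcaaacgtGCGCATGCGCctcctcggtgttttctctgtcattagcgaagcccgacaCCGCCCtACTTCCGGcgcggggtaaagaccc
Brwd1: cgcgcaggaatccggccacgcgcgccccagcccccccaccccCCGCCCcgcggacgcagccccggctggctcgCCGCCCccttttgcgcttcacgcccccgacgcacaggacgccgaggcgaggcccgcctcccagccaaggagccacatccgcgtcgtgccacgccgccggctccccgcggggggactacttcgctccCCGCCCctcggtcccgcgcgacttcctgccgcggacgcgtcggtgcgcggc
The other 3 belong to regions that reached the strongest 9002 of every post library and of no pre library: B3galt1 on chr2:67565439-67565688 (plus strand), Prr7 on chr13:55464017-55464266 (plus strand) and H4c9 on chr13:22041363-22041612 (minus strand).
B3galt1: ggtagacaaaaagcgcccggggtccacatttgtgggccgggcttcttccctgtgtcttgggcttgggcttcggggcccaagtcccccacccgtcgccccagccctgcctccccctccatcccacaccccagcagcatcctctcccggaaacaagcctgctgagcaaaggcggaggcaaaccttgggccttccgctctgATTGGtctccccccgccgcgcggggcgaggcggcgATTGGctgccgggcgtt
Prr7: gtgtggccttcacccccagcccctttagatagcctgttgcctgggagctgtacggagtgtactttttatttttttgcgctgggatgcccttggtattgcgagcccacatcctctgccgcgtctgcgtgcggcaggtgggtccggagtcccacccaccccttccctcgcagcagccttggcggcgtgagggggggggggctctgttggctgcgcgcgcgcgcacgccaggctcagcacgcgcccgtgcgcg
H4c9: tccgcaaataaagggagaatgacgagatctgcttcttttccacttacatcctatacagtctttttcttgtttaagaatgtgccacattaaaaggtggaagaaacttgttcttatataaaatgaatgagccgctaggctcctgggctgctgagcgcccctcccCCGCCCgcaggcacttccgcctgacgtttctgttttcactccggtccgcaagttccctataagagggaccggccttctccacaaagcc
The GC content was 53.2% for Noxa1, 54.0% for Ackr3, 68.8% for Rab39, 59.2% for Ube4a and 79.6% for Brwd1, and 68.0%, 66.8% and 49.2% for B3galt1, Prr7 and H4c9, around a median of 55.6% over 21263 such windows. Rab39 held 5 matches to the GC box, which 42.6% of all windows hold at least once, and 2 to NF-Y, which 35.4% hold. Ackr3 held a RUNX match (12.4% of windows), a GC box and an NF-Y match, and Noxa1 a GATA match (8.81%) and an NF-Y match. Ube4a held 2 ETS matches (3.79% of windows hold one), 1 NRF1 match (1.07%), 4 GC boxes and 1 NF-Y match, and Brwd1 held 3 GC boxes. B3galt1 held 2 NF-Y matches, H4c9 held 1 GC box and Prr7 held no match. None of the 8 windows held the letters of AP-1, which 6.13% of windows hold, or those of CRE, the E-box or IRF (1.92%, 6.63% and 2.96%).

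The pre libraries differed among themselves in length and the post libraries did not. Regions per list numbered 26769, 20408, 19734 and 9002 before transplantation (pairs 1 to 4) and 30635, 29043, 29696 and 30182 after it. The lists thus held 10911 more regions on average after transplantation, and more in 4 of 4 pairs (exact sign-flip p = 0.13, adjusted 0.141 over 9 library measures), the smallest p that 4 pairs allow. Young pre 4 stands apart, since 8992 of its 9002 regions were called in all 8 young libraries, and several results below changed when its pair was left out. It was also transposed alone, on day 3, against day 2 for young pre 1 to 3, day 5 for young post 1 and 2, and day 6 for young post 3 and 4. No day held young libraries of both stages, so stage and transposition day cannot be told apart in any result here. Reads per library were not used, and the depth behind each list is unknown.

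Post libraries also resembled each other more closely than pre libraries did. With every list shortened to its 9002 regions of largest area, any 2 post lists shared 90.3 to 91.4% of their joint regions, and any 2 pre lists 71.5 to 86.0%. The mean similarity of a library to the others of its stage was 78.2 ± 3.51% before and 91.0 ± 0.291% after (SD, n = 4 each), higher after in 4 of 4 pairs (exact sign-flip p = 0.13, adjusted 0.141). Libraries of a stage share their pairwise values, so the 4 means are not independent, and young pre 4 enters all 4 pre means. With pair 4 left out and lists of 19734 regions the difference was 9.06 points, in place of 12.8. Pairs from the same donors shared 73.0 to 87.4%, and libraries of different stage and donors 72.4 to 86.2%, so the ranges of matched and unmatched libraries overlapped. Over the 8992 shared regions, rank correlations of peak area (Spearman's rho, a description across regions) were 0.979 to 0.984 within post and 0.772 to 0.962 within pre.

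Much of the difference in where peaks lay went with list length. In full lists, the share of regions covering a gene start was 42.9 ± 11.4% before and 29.7 ± 0.399% after (SD, n = 4). At equal length it was 58.5 ± 1.08% before and 57.5 ± 0.592% after, lower after in 4 of 4 pairs (exact sign-flip p = 0.13, adjusted 0.141). Without pair 4 the difference in full lists was -7.64 points, in place of -13.2. At equal length it was -0.97 points with all pairs and -0.75 in pairs 1 to 3 at the same length. With pair 4 left out and lists of 19734 regions it was -0.052 points (exact sign-flip p = 1), so little of it was left in longer lists. The median peak width was 686 ± 78.3 bp before and 703 ± 9.32 bp after (exact sign-flip p = 0.625), and it was 16.3 bp lower after when pair 4 was left out.

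The cells carried open chromatin at or near genes that define HSCs at both stages. The region over the start of Kit, the stem cell factor receptor, stood at percentiles 90.3, 82.4, 88.4 and 85.4 of the 8992 shared regions before and at 90.7, 91.6, 91.1 and 88.4 after. Mecom, an HSC transcription factor, stood at 98.3, 96.8, 98.0 and 89.6 before and at 98.0, 97.7, 97.9 and 98.2 after. A region outside Procr, the gene of the HSC surface marker EPCR, lies 7436 bp from its start. It had a mean of 76.7 ± 15.4 before and 80.9 ± 1.42 after, with 53.9 in young pre 4. None of these passed the rank test (limma adjusted p = 0.515, 0.612 and 0.848). The region over the start of Hlf and a region 4296 bp from the start of Slamf1 were called in 3 of 4 pre and 4 of 4 post libraries, each absent from young pre 4. No region had Ly6a as its nearest gene.

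Among the regions open in every library, 3 fell in rank after transplantation and none rose. Ranks were compared over the 8992 regions called in all 8 young libraries, so that every library ranked the same regions, with limma on normal scores of the ranks and the donor pool as a block. This set is 99.9% of the list of young pre 4, so the shortest list decided which regions entered. It reaches down to the weakest calls of that library and, in the others, holds mostly their strong peaks. After adjustment, 3 of 8992 regions (0.0334%) were lower after transplantation and 0 (0%) higher, and at an unadjusted p under 0.05 there were 1262 (14%). All 3 regions cover the start of a gene.

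The region of Noxa1, an activator of NADPH oxidase, the enzyme complex that makes superoxide (chr2:25094698-25095850), stood at percentiles 32.9, 32.1, 33.5 and 49.6 before and at 1.14, 0.24, 0.08 and 1.15 after. Before transplantation it was a mid-ranking peak, and after it was among the weakest of the shared set in every library. Its change was -2.29 ± 0.16 on the normal score scale (SE, limma adjusted p = 0.0247, lower in 4 of 4 pairs). The region of Ackr3 (chr1:90203644-90204587), a scavenging receptor for Cxcl12, the chemokine that holds HSCs in the marrow niche, stood at 10.6, 12.8, 14.8 and 25.8 before and at 0.14, 0.23, 0.36 and 0.14 after. Already low before, it ended at the bottom of the shared regions, with a change of -1.86 ± 0.15 (limma adjusted p = 0.0247). The region of Rab39 (chr9:53705795-53706955), a small GTPase of vesicle traffic, stood at 42.3, 47.4, 49.5 and 66.7 before and at 6.00, 6.84, 9.44 and 12.7 after. Rab39 changed by -1.41 ± 0.11 (limma adjusted p = 0.0247). Pre and post values of these 3 regions did not overlap, a description of regions picked by the test on the same values. Each of the 3 was called in 4 of 4 post lists, as entry to this comparison required, so a region that closed could not be seen here.

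In each of the 3 regions, young pre 4 was the highest value. The regions of Noxa1, Ackr3 and Rab39 are 1153, 944 and 1161 bp wide, below the median of 1494 bp over shared regions. Narrow shared regions tended to fall in pair 4, as described below with width, and the part of width in these 3 changes was not tested. Without pair 4, when 17658 regions were shared, the changes were -1.28 for Noxa1, -0.91 for Ackr3 and -0.80 for Rab39 (limma adjusted p = 0.122 each), and no region passed. By percentile of the full lists, pair 4 went the other way. Noxa1 stood at 74.9, 66.6, 67.4 and 49.6 of the full pre lists and at 56.2, 44.5, 41.6 and 55.2 of the full post lists, lower after in pairs 1 to 3 and higher in pair 4. Ackr3 went from 25.8 to 44.6 in pair 4 and Rab39 from 66.7 to 68.5, and both were lower after in the other 3 pairs. Full-list percentiles of lists of unequal length are not on 1 scale. Leaving out pair 2 or pair 3 also ended all 3 calls, and leaving out pair 1 left Noxa1 alone (adjusted p = 0.0391), so the direction was kept in each and the call in 1 of 4.

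Regions near a rise did not pass, and 4 of them are described here. The region within Plxna4, a semaphorin receptor gene, had a mean percentile of 31.3 ± 8.64 before and 69.1 ± 3.23 after (SD, n = 4, limma adjusted p = 0.0979). The region over a start of Lmna, the nuclear lamin A gene, ranked at 5.60, 2.02, 1.94 and 0.31 before and at 24.1, 19.3, 20.4 and 17.5 after (adjusted p = 0.105). A region 29324 bp outside P2ry2, the gene of a receptor for extracellular nucleotides, had 15.2 ± 3.19 before and 43.5 ± 2.62 after. A region within the zinc finger gene Zfp532 had 2.41 ± 2.21 before and 20 ± 2.45 after (limma adjusted p = 0.109 for both regions). In all 4 the values of the stages did not overlap, but the regions were picked for their small p in the same values. How many of all shared regions show no overlap was not counted.

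**Figure D1:**
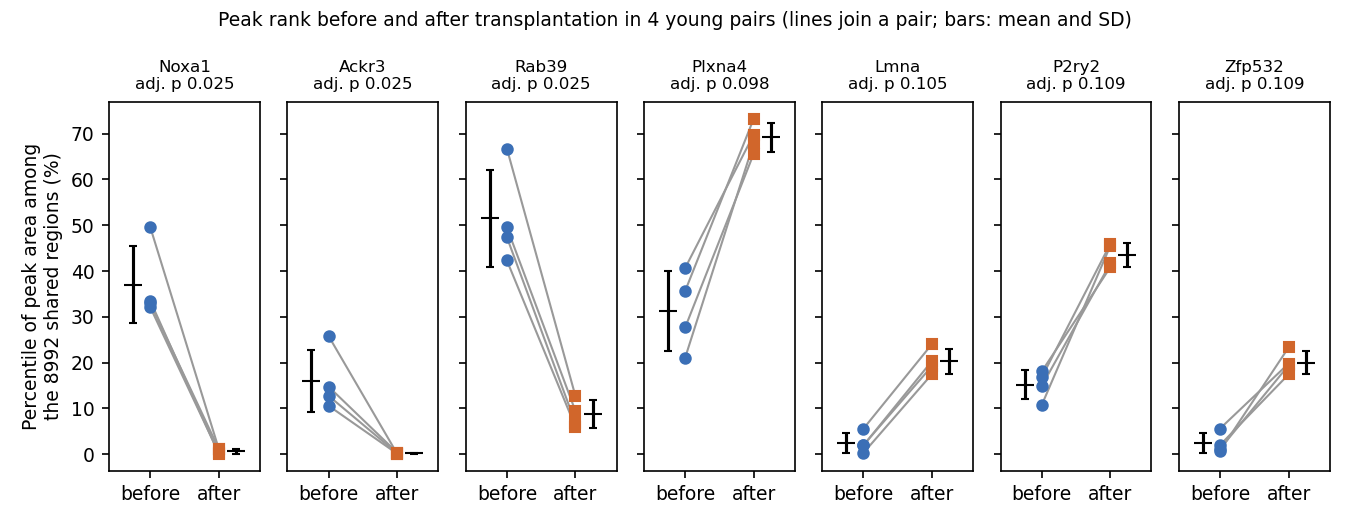
Percentile of peak area among the 8992 shared regions (vertical axis, %) before and after transplantation at 7 regions named by their nearest gene, with 1 point per library, lines joining libraries of the same donors, bars giving mean and SD (n = 4) and the limma adjusted p above each panel. Noxa1, Ackr3 and Rab39 sit lower in all 4 post libraries and pass the test; the 4 others sit higher in all 4 post libraries and do not pass.

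Presence in the full lists was almost entirely in favour of the longer post lists. Of 32878 regions called in a young library, 2409 (7.33%) were called in 4 of 4 post and 0 of 4 pre lists, and 1 (0.00304%) in 4 of 4 pre and 0 of 4 post lists. These post-only regions were narrow and weak: their median width was 496 bp and their median percentile in the post lists 18. Of them 3.90% covered a gene start, 49.6% lay within a gene, 34.4% lay outside genes and 8.01% lay more than 100 kb from any gene. Over all regions called in a young library these shares were 27.8%, 36.0%, 23.3% and 3.29%, with a median width of 845 bp. The 8867 regions called in 3 to 5 of the 8 young lists, which include the post-only ones, were nearer to them. Their shares were 8.71%, 46.1%, 31.2% and 5.35%, and their median width was 536 bp. HSC identity genes held 9 of 188 regions called in a young library (4.79%, below the 7.33% of all regions), among them regions at Erg, Gata2, Meis1, Mllt3 and Msi2. Genes of homing and niche adhesion held 8 of 83 (9.64%), among them Cxcr4, the receptor for Cxcl12, Itga4, an integrin subunit that binds Vcam1, and the hyaluronan receptor gene Cd44. Granulocyte and monocyte genes held 7 of 57 (12.3%), among them Cebpa, Irf8 and Csf1r. A post-only pattern had p = 0.480 once list length was weighed (exact test described next), so these regions are not shown to differ beyond the length of the lists.

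A test that weighs each library by the length of its list called only regions more often present before transplantation. It is an exact conditional test on the calls of each region, in which each library counts by its log odds of a call over all regions, and it was run on the 8867 regions called in 3 to 5 of the 8 lists. After adjustment 66 regions (0.744%) were called more in pre libraries and 0 (0%) more in post libraries, and 302 (3.41%) had an unadjusted p under 0.05. The count of 0 was fixed by the list lengths: presence in all 4 post lists alone gives an exact p = 0.480, the smallest that any post-higher pattern could reach, so the test could call regions in 1 direction only. Of the 66 regions, 43 were called in young pre 1 to 3 and in nothing else, 17 in those and 1 post library, 4 in young pre 2 to 4, and 2 in all 4 pre libraries. These call patterns chose the regions and are given as a description. The count was 62 without young pre 4, and all 62 belonged to the 66. Leaving out pair 3 lowered it to 2. Fisher's exact test, which ignores length, called 0 at an adjusted p under 0.05 and 2410 at an unadjusted one, with a smallest p of 0.0286.

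The region called in 4 of 4 pre and 0 of 4 post libraries lies 3289 bp upstream of Tmem125, which encodes a transmembrane protein (chr4:118547015-118548781, exact adjusted p = 1.6e-06). It ranked at percentiles 49.0, 98.6, 80.9 and 93.6 of the pre lists, so it was a strong peak in 3 of them. In the old libraries it was called in 4 of 4 pre and 3 of 4 post lists. A region within Cldn34d, of the claudin family, was called in 4 of 4 pre libraries and in young post 1 (adjusted p = 2.5e-05).

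Immediate early genes made up 6 of the 66. These genes switch on within minutes of a stimulus without new protein synthesis, and many encode AP-1, Egr, Klf or Nr4a transcription factors. Of 18 tested regions of the AP-1 and immediate early list, 6 (33.3%) were pre-higher, against 0.744% of all tested regions. Leaving out a pair gave 0 to 7 such regions, with 0 without pair 3 and 5 without pair 4, and all 6 were called in young pre 1 to 3. Nr4a2, an orphan nuclear receptor, had 2 of them, and the others lay at Egr3, Klf6 and the small Maf genes Maff and Mafk. The Nr4a2 region at chr2:57102950-57106393 lies 437 bp past the end of the gene and ranked at 48.6, 74.2 and 77.5 in young pre 1 to 3. Its neighbour at chr2:57106521-57110830 spans the 3′ end and ranked at 84.1, 60.0 and 77.9 there, with a call in young post 2 at percentile 1.11. The Klf6 region also spans the 3′ end and ranked at 11.5, 15.5 and 24.6. None of the 6 was called in young pre 4.

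Among the other lists, 3 held a pre-higher region. Nfkbiz, an inducible nuclear regulator of NF-kB, had 2 of the 14 tested regions of the NF-kB and inflammation list (4 other regions of that list, at Il1b, Nfkbia and Tnfaip3, were post-only in full lists), and the stronger one ranked at 79.2, 52.5 and 78.6 in young pre 1 to 3 (exact adjusted p = 0.0017). Socs3, the feedback inhibitor of JAK-STAT signalling, had 1 of the 31 tested regions of the cytokine receptor and JAK-SOCS list, at percentiles 32.0, 25.8 and 13.4 before and at 3.60 in young post 3 (adjusted p = 0.0145). Wnt5a, a noncanonical Wnt ligand, had 1 of 30 tested regions of the Wnt and Notch list. Dusp5, an inducible phosphatase of ERK, had 2 regions, and Csrnp1 had 1. The other 18 lists held 0 pre-higher regions, among them HSC identity (0 of 46 tested), homing and niche adhesion (0 of 26) and every list of another blood or stromal cell type. Marker lists of mature T, B and NK cells had 8 tested regions, granulocytes and monocytes 19, erythroid cells 16 and endothelial and stromal cells 15, too few beside the 0.744% of all tested regions for a count of 0 to be read as a result. The 46 tested regions of HSC identity and the 26 of homing and niche adhesion are too few for that as well.

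Genes of RNA splicing and processing were a further group, which was noticed after the values were seen. SR protein, hnRNP and CLK kinase genes, taken by their symbols, held 6 of the 66, with 15 of their regions tested. The families were taken because members were seen among the 66, so this count restates what prompted it and carries no comparison with the 0.744% of all tested regions. Clk1, a kinase that phosphorylates SR splicing factors, had 2, at chr1:58408213-58411958 and chr1:58414084-58419603. The second ranked at 96.8, 85.0 and 88.1 in young pre 1 to 3 and at 0.71 in young post 4, its only post call. Srsf3 had 2 and Srsf7 and Hnrnph1 had 1 each. Hnrnph1, an RNA-binding splicing regulator, had its region at the 3′ end of the gene (chr11:50386276-50389044), at 80.1, 69.5 and 69.3. Outside these gene families, Sfpq, Rbm39 and Cdk11b, which also act in splicing, had 2 regions each, and Ccnl1 had 1. Actg1, the cytoplasmic gamma-actin gene, had the highest-ranking 3′ end region, at 92.4, 57.6 and 91.5 (chr11:120343295-120345721). The imprinted gene Peg3 had 2 regions and the imprinted gene Dlk1 had 1, 50180 bp from its start. Actg1 has processed copies elsewhere in the genome, and the 2 regions near Gm15319 lie among predicted genes, so reads there may be shared with similar sequence.

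**Figure D2:**
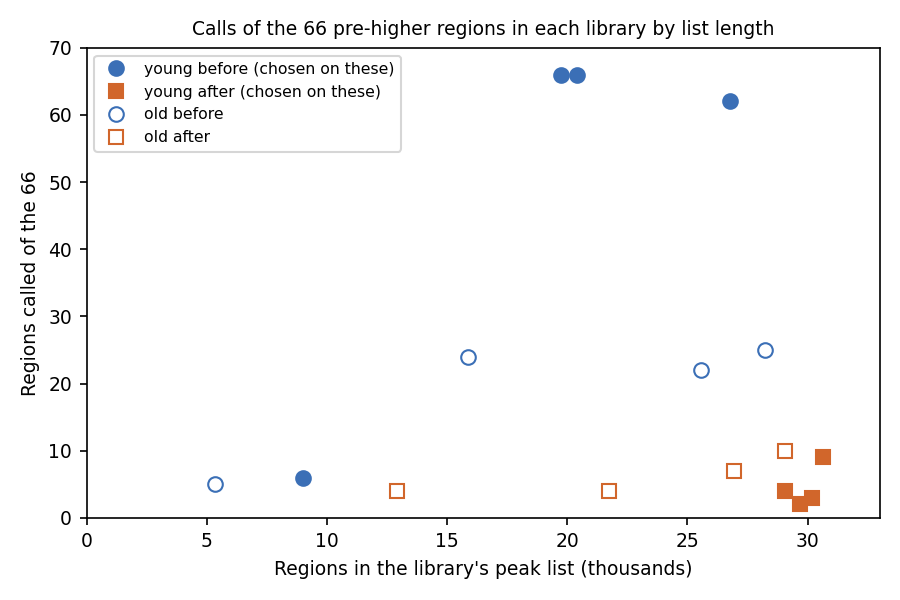
Number of the 66 pre-higher regions called in each library (vertical axis) against the number of regions in that library's list (horizontal axis, in units of 1000); filled points are the young libraries on which the 66 were chosen, open points the old libraries, which were not used. Old pre 1 to 3 called 22 to 25 of the 66 and old post libraries 4 to 10, including lists longer than theirs.

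Like the tested regions, the 66 lay within genes more than at gene starts, and a larger share of them lay at 3′ ends. Regions covering a gene start made up 4.55% of them and 8.71% of all tested regions, and regions within a gene over 1 kb from its ends 53% and 46.1%. Of the 51 regions whose nearest gene has a known strand, 13 (25.5%) spanned or lay within 1 kb of the 3′ end without reaching a start, against 3.96% of tested regions. Of the 38 that lay inside a gene away from the start, 20 (52.6%) fell in the final stretch towards its 3′ end (the last of 3 equal parts), against 30.9%. They were also wider, with a median of 1110 bp against 536 bp. This description by gene position was added after the values were seen. Width and position were not separated from each other, and their part in the result was not tested.

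**Figure D3:**
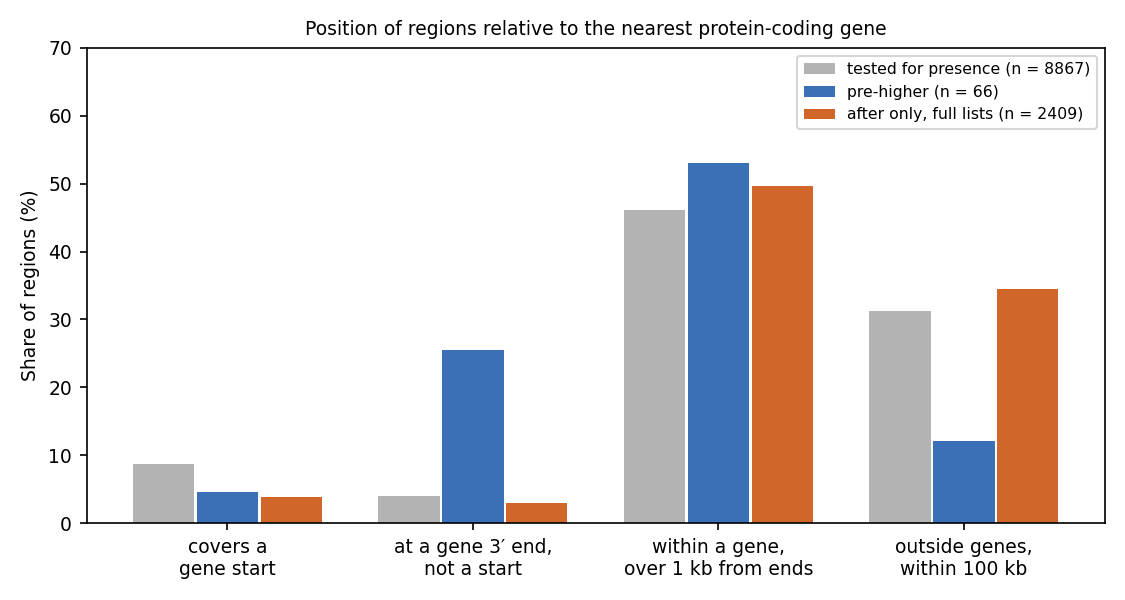
Share of regions (vertical axis, %) by position relative to the nearest protein-coding gene for the 8867 tested regions, the 66 pre-higher regions and the 2409 regions called in all post and no pre full lists; shares at the 3′ end are of regions whose gene has a known strand (51 for the pre-higher set). Of the pre-higher regions 25.5% lie at a 3′ end, against 3.96% of the tested and 2.92% of the post-only regions.

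The old libraries, which took no part in choosing the 66, gave these regions mostly before transplantation. They were called 22, 25, 24 and 5 times in old pre 1 to 4, whose lists held 25552, 28220, 15878 and 5328 regions. After transplantation they were called 4, 7, 10 and 4 times in old post 1 to 4, with 21748, 26942, 29077 and 12903 regions. Old pre 1 to 3 each called more of them than any old post library, including old post 3, whose list is the longest, and only old pre 4, with the shortest list, fell in the range of old post. Each old library, pre or post, called a smaller share of the 66 than of all 33773 regions. Those called in old pre 1 to 3 had median percentiles of 34.7, 32.4 and 30.3. How many of the 8867 tested regions the old libraries called was not counted, so these counts have no background beside them. The Nr4a2, Actg1 and Eif4a2 regions were called in 1 of 4 old pre and 0 of 4 old post libraries, and both Peg3 regions in 3 of 4 and 0 of 4. The regions of Hnrnph1, Srsf7, Klf6, Maff and Nfkbiz were called in no old library.

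With lists cut to the same length, more regions were held by all post lists alone than by all pre lists alone. Among 11476 regions in any of the lists of 9002, 86 (0.749%) were in 4 of 4 post and 0 of 4 pre lists and 40 (0.349%) the reverse. The post-only group leaned away from gene starts, with 19.8% covering one, against 42.5% of the pre-only group and 54.0% of all 11476. These are differences of rank more than of presence in pairs 1 to 3: of the 86 post-only regions, 86, 82 and 84 were called in the full lists of young pre 1 to 3 and 0 in young pre 4. The 0 in young pre 4 was fixed, since the cut length is its whole list. All 40 pre-only regions were called in every full list. That was nearly fixed too, since 8992 of the 9002 regions of young pre 4 were called in all 8 young libraries. No length-weighted call was made among these short lists (0 adjusted, 126 of 1284 at an unadjusted p under 0.05, exact test), so the counts are descriptions.

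The strongest post-only region spans the end of Ccdc97, a coiled-coil protein gene (chr7:25709575-25712441). It stood at percentiles 59.6, 48.5, 76.2 and 66.6 of the shortened post lists. In full lists it stood at 60.5, 51.1 and 11.4 in young pre 1 to 3, absent from young pre 4. The full post lists held it at 88.1, 84.0, 92.8 and 90.0. The region over the start of B3galt1, a galactosyltransferase gene, stood at 44.7, 60.5, 48.6 and 49.9 after and was called in young pre 1 and 3 alone before. Prr7, a membrane adaptor gene, stood at 33.7, 36.3, 57.5 and 56.6, again with its start covered. The others were near Snx5, a sorting nexin of endosomes, within the semaphorin gene Sema4d, near the potassium channel gene Kcnk18, at the histone H4 gene H4c9 and within Asap2, an Arf GTPase-activating protein gene. H4c9 belongs to a family of nearly identical copies, so its reads may be split between them. Ski, a corepressor of TGF-beta signalling, was the one gene of the 22 lists in this group, at 15.6, 32.1, 11.8 and 5.10.

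In the full post lists the 40 pre-only regions had median percentiles of 65.5 to 66.5, where the 9002 strongest began at 69.0 to 70.6, and their lowest values were 39.7 to 56.2. Most thus lay close below that limit and a few well below it, among them Noxa1. Rab39 was another of the 40. Cdk8, the kinase of the Mediator complex, stood at 10.7, 50.2, 43.1 and 67.0 of the shortened pre lists, and at 69.3, 66.4, 67.2 and 68.7 of the full post lists. The starts of Ube4a, a ubiquitin ligase gene, and Brwd1, a bromodomain gene, stood between 24.5 and 33.2 in all 4 pre lists, a narrow spread that held in young pre 4 too. Rpl19, a ribosomal protein gene with processed copies in the genome, stood at 18, 18.4, 8.30 and 7.74. Adgrv1, Hdac7 and a region far from genes on chr6:3200723-3201715 completed the highest 8, and the chr6 region stood at 39.7 of the full list of young post 2.

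These counts moved with the list length and with young pre 4. With young pre 4 kept whole and the other lists cut to 19734 regions, 407 regions were post-only and 2 pre-only. Without pair 4, 472 of 24172 (1.95%) were post-only and 369 (1.53%) pre-only at that length. In this comparison, chosen after the values were seen, 11.0% of the pre-only regions lay at 3′ ends, against 3.14% of all and 3.74% of post-only regions. At 9002 regions the order was the reverse, with 0 of 30 pre-only regions of known strand at a 3′ end, 6 of 69 post-only ones (8.70%) and 2.62% of all. The AP-1 and immediate early list held 6 pre-only regions of 81 (7.41%), at Egr3, Ier3, Maff, Mafk and Nr4a2, and 0 post-only. The NF-kB list held 3 pre-only of 56, at Birc3 and Nfkbiz, and 1 post-only, at Tnfaip3. HSC identity genes held 3 pre-only (2.08%), at Mecom, Mllt3 and Procr, and 2 post-only (1.39%), at Meis1, of 144, shares near those of all regions. Homing and niche genes held 3 post-only of 58, at Cxcr4, Cd44 and Cd47, and 2 pre-only. Granulocyte and monocyte genes held 2 post-only of 39, at Csf3r and Itgam, and hypoxia and Foxo genes 2 of 64, at Foxo3 and the glucose transporter gene Slc2a3. Counts of 1 to 3 per list are given as values only.

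Across the shared regions, median changes of the lists were small, and no region of any list passed the test. Medians were positive for, among others, HSC identity, erythroid, megakaryocyte and lymphoid priming genes. They were negative for mature T, B and NK (-0.05), endothelial and stromal (-0.03), cytokine receptor (-0.03), Wnt and Notch (-0.05), hypoxia and Foxo (-0.02), cell cycle (-0.02) and ribosomal protein genes, the lowest of the 22 lists. The hypoxia and cell cycle medians are close to that of all shared regions, -0.02. Hypoxia and Foxo genes had 5 of 27 regions higher in 4 of 4 pairs and 2 lower. The granulocyte and monocyte median, 0.06, was -0.01 after adjustment for width. As a description, 1022 of 8992 shared regions (11.4%) had a higher percentile after in 4 of 4 pairs and 1168 (13%) a lower one, with a median change of -0.02 on the normal score scale. Without pair 4, 1912 (21.3%) were higher in 3 of 3 pairs and 1827 (20.3%) lower, and over the 17658 regions shared by those pairs 3603 (20.4%) and 3801 (21.5%). HSC identity genes had 10 of 45 regions higher and 2 lower, with a median change of 0.16. The 10 lie at Gfi1b, Lmo2, Tal1, Kit, Meis1, Mycn, Runx1 and Erg, and the 2 at Egfl7, and the largest rise, 0.75 at Gfi1b, had a limma adjusted p of 0.23. Erythroid genes had 6 of 14 higher and 1 lower (median 0.15), interferon response genes 6 of 20 and 1 (0.11) and megakaryocyte genes 5 of 14 and 3 (0.15). The higher interferon regions included Irf1, Irf2, Irf9, Isg20 and Psmb8. Genes reported as higher in old HSCs had 4 of 11 higher and 1 lower (0.18). Ribosomal protein genes had 0 of 28 higher and 5 lower (median -0.13), at Rps2, Rps3, Rps6, Rps14 and Rps24.

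These medians leaned on pair 4. Without it the median was -0.0044 for HSC identity, 0.0042 for erythroid genes, -0.02 for interferon genes, 0.0034 for the ageing list and -0.13 for lymphoid priming, which had been 0.14. The megakaryocyte median was 0.11 and the ribosomal protein median -0.09 without pair 4. Over those 17658 regions, HSC identity genes had 20 of 103 higher in 3 of 3 pairs and 24 lower, erythroid genes 9 of 27 and 4, interferon genes 7 of 36 and 7, and ribosomal protein genes 2 of 39 and 14. Hypoxia and Foxo genes had 17 of 47 (36.2%) higher and 5 (10.6%) lower, against 20.4% and 21.5% of all these regions. AP-1 and immediate early genes had 6 of 39 shared regions higher and 9 lower, a median of 0.02. Without pair 4, 9 of these 39 were higher in 3 of 3 pairs and 16 (41.0%) lower, against 20.3% lower of all. Over the 17658 regions they had 14 of 60 higher and 22 (36.7%) lower, against 21.5% lower of all. The regions split within the list: Jun, Fos, Fosb, Klf6, Zfp36 and Dusp1 were higher in 4 of 4 pairs, and Nr4a1, Egr1, Btg2, Klf4, Klf2, Maff, Ier2 and Ier5 lower in 4 of 4. The largest difference was -1.52 at 1 of 2 Nr4a1 regions (limma adjusted p = 0.16). Wnt and Notch genes had 0 of 19 higher and 3 lower, and p53 and DNA damage genes 0 of 16 in either direction. Splicing genes of the SR, hnRNP and CLK families had 0 of 29 higher and 7 lower.

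**Figure D4:**
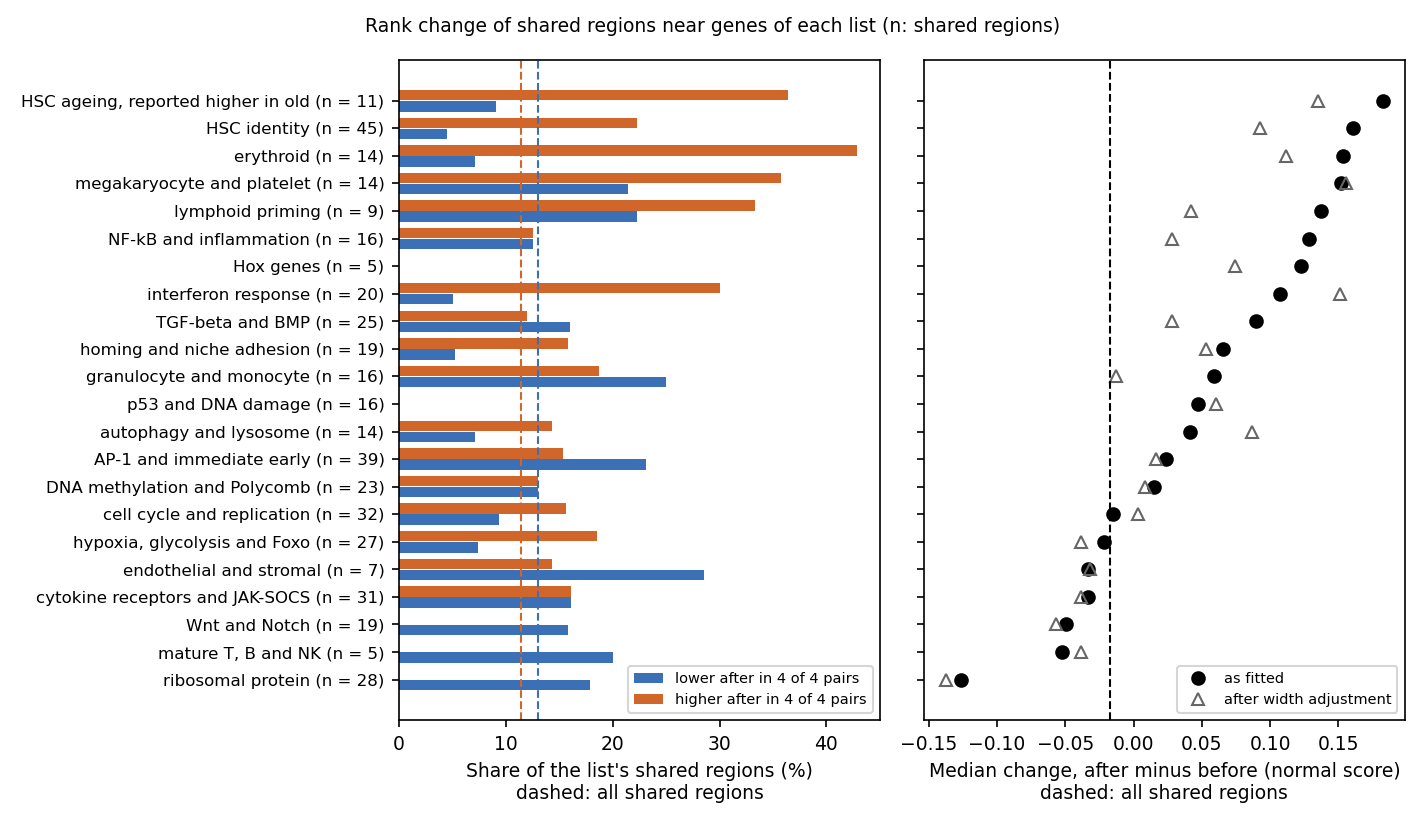
For each gene list, the share of its shared regions higher or lower after transplantation in 4 of 4 pairs (left, %) and the median change in normal score, as fitted and after subtracting the median of regions of like width (right); dashed lines give all 8992 shared regions. HSC identity regions (n = 45) have a median of 0.16 as fitted and 0.09 after the width adjustment, and ribosomal protein regions (n = 28) lie lowest, at -0.13 and -0.14.

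Rank change moved with the width of a region, and did so mainly in pair 4. Shared regions were split by width into 5 groups of about equal number. In the narrowest (184 to 1106 bp) the median change was -0.14 and in the widest (2082 to 17385 bp) 0.09. In percentile points, the medians of pair 4 ran from -10.5 in the narrowest to 6.04 in the widest group. Those of pairs 1, 2 and 3 were 0.534, -1.28 and -2.05 in the narrowest and -0.10, 0.178 and 0.323 in the widest. Ackr3 lies in the narrowest group, and Noxa1 and Rab39 lie in the next (1107 to 1364 bp), where the median of pair 4 was -8.65. HSC identity regions are wide, with a median of 2217 bp against 1494 bp for all shared regions, and so are AP-1 regions, at 3303 bp.

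**Figure D5:**
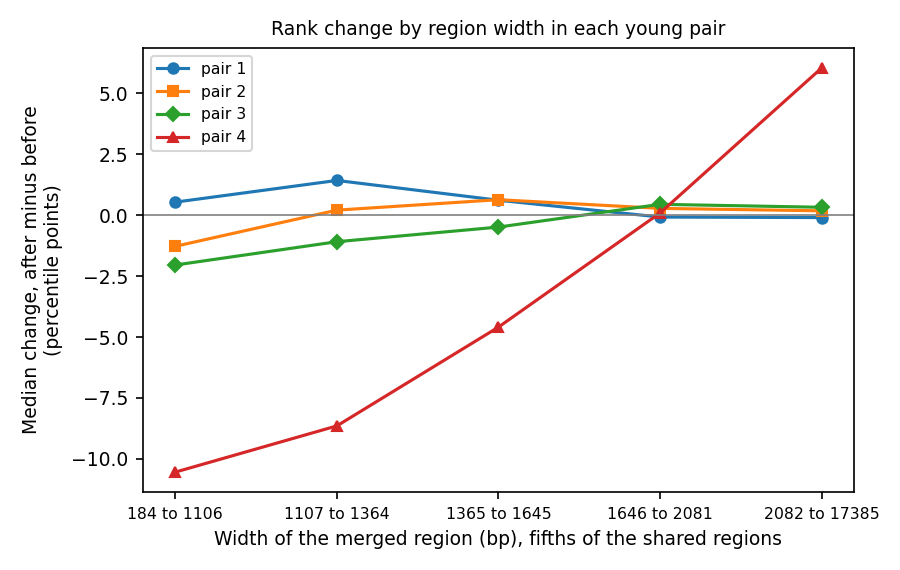
Median change in percentile after transplantation (vertical axis, percentile points) for 5 groups of shared regions of rising width (horizontal axis, bp), with 1 line per pair of libraries. Pair 4 runs from -10.5 to 6.04 points, and pairs 1 to 3 stay between -2.05 and 1.42.

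The change with transplantation was set against that of the old pairs over 5262 regions called in all 16 libraries. No region passed the test of the difference between young and old pairs (limma, 0 of 5262, 0%), with 324 (6.16%) at an unadjusted p under 0.05. Rab39, the one fallen region in this set, differed between young and old pairs by -0.94 (young change minus old change, normal score scale, limma adjusted p = 0.715). Noxa1 was called in 3 of 4 old pre and 2 of 4 old post libraries, and Ackr3 in 3 of 4 and 4 of 4.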

How the data were processed

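ATAC-seq (Omni-ATAC protocol, per the labels' protocols) gave 1 peak list per library. Per the submitters' processing notes, FastQC, MultiQC, Trim Galore, cutadapt and Genrich were used on build mm10, and ChIPseeker, featureCounts and DESeq2 are also named. No aligner, version or setting of these steps is given in the sources used here. The score compared is column 7 of the deposited lists, the area of a peak, at least about 200 in every list and not normalised between libraries by the authors. Columns 8 and 9 of the deposited lists (-log10 p and -log10 q) and column 5 were not compared. Of 209238 deposited young peaks, 206 (0.0985%) on unplaced scaffolds were left out.

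Areas of peaks in a region were summed, ranked and compared with limma 3.58.1 (R 4.3.3) on normal scores, donor pool as block, Benjamini-Hochberg threshold 0.05. The pairs come from the series design (same donors); deviations of same-numbered libraries from their stage means correlated at 0.167, 0.0421, 0.0767 and 0.0469. The length-weighted presence test used log odds from a Rasch model, with p values adjusted over regions called in 3 to 5 of 8 lists. It treats the libraries as unpaired. Library measures were tested by exact sign flips over 4 pairs, two-sided. Tests were checked on simulated data. Other steps used Python 3.11.15, numpy 2.4.6, pandas 2.3.3, scipy 1.17.1 and matplotlib 3.10.9.

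Genes came from the RefSeq table of GRCm38.p6 (21887 protein-coding genes), and 494 of 498 genes of 22 lists matched. Gene ends reach 1 kb to each side of a gene's first and last base, and strand came from the RefSeq promoter table. Named regions are the 10 largest rank changes past the threshold per direction (the 5 smallest p where none passed), the 8 all-or-none regions of highest percentile, the 8 presence calls of smallest p per direction (ties by the highest mean pre percentile), up to 4 list genes among these, and 6 HSC markers. Other regions named, the counts over 4 of 4 pairs, the 3′-end positions and the splicing genes were chosen after their values were seen. The members and lists were chosen with earlier results of these data known. Alternatives tried were the area per region, library weights, scale, blocking, region definition, a stricter area of 400, list length and leaving out pairs. The results of a few genes that these rules or lists name are not reported here.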

Additional observations from a re-analysis of the deposited data

Results flagged for a closer look

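In the rank test, the Noxa1 region stood at percentile 49.6 of the shared regions in young pre 4, against 32.1 to 33.5 in the other pre libraries. The gap to the nearest library took up 0.920 of the range of the group, above the limit of Dixon's test for 4 values. It was 1 of 34 groups of 4 libraries checked, and chance alone gives about 1 in 20. Young pre 4 is the shortest list, and Noxa1 was lower after transplantation in each of the other pairs as well, with a change of -1.28 without pair 4 (limma adjusted p = 0.122).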

How the results depend on the processing

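Counts of the rank test (0 higher and 3 lower after) moved with most settings. They were 3 and 8 with the highest peak area in place of the sum, 204 and 211 with limma's array weights, 2 and 5 on a log2 scale after quantile normalisation, 36 and 26 with no replicate block, and 1 and 6 with 500 bp summit windows. They were 0 and 9 with regions merged over young libraries alone and 0 and 0 over 21093 regions called in at least 6 of 8 lists. Leaving out each pair gave 0 higher and 0 to 1 lower. Noxa1 passed in 8 of 12 alternatives, Ackr3 in 6 of 11 and Rab39 in 7 of 12, each lower after in all of them. The difference from the old pairs called 0 regions except with array weights, which called 88 where the young change was higher and 43 where it was lower.

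All-or-none counts in full lists were 2409 to 5999 post-only and 1 to 47 pre-only without a pair or young pre 4 (5999 without pair 1). Pre-only regions were 9 with summit windows and 44 without young pre 4. At equal length (86 post-only, 40 pre-only), leaving out a pair gave 107 to 472 and 64 to 369, and leaving out young pre 4 alone gave 407 and 333. Cutting the other lists to the second shortest length gave 407 and 2, cutting all to 4501 regions gave 45 and 19, and an area of at least 400 left 18 pre-only regions. Fewer libraries can only raise such counts at a given length.

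The length-weighted test (66 pre-higher) gave 29 with an area of at least 400, 145 with summit windows, 2 to 76 without a pair (2 without pair 3), and 0 with Fisher's exact test or lists of equal length. Post-higher counts were 0 in each, which the list lengths fixed in the comparison as reported.

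With no replicate block, exact permutation of 4 against 4 gave p = 0.0286, below the smallest p that pairs allow, for peaks (10969 more after), regions (10911), gene ends (-13.6 points) and gene starts (-13.2) in full lists and similarity (12.8 points). The difference in median peak width, 17.5 bp, ranged from -16.3 bp (without replicate 4) to 50.7 bp without 1 pair. Causes of these shifts were not tested. Unknown read depth limits every absence of a call, which is read as not called rather than closed.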

Other observations

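Among the regions that were all-or-none at equal length, a few further genes were picked after their values were seen and carry no test of presence. Post-only regions lay within Pparg, the adipogenic nuclear receptor gene, at percentiles 35.6, 32.2, 28.5 and 29.5 of the shortened post lists, and over a start of Esr1, the oestrogen receptor gene, at 4.53, 9.91, 21.8 and 4.04. A second histone gene, H2ac4, joined H4c9, at 15.2, 15.1, 11.2 and 21.0. In the full pre lists, Pparg was called in young pre 1 to 3 at 62.2, 42.5 and 33.1 and was not called in young pre 4. In the full post lists it stood at 81.1, 79.0, 78.3 and 79.0. Pre-only regions covered the start of Cebpg, a bZIP factor gene, and lay within Mapk14, the p38 kinase gene. Their rank changes were -0.48 and -0.52 (limma adjusted p = 0.221 and 0.217).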
